A study of Drosophila melanogaster with 6 samples.

Results

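The lists of under-replicated domains hold 335 windows of the X chromosome, 146 in pericentric heterochromatin and 189 on the chromosome arm, out of 2189 windows on all chromosomes. Every listed window on X was taken, and 1 arm window that the list repeats was counted once. A window spans 10 kb of the dm6 assembly, except the last one before the end of the X scaffold. The windows were listed because they lie in domains called under-replicated in HWT. A low level in HWT is thus how the domains were chosen and not a result, though single windows in them can be high.

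Genomic DNA came from salivary glands of female wandering third-instar larvae of 3 genotypes, with 2 libraries per genotype and 25 glands per library. All larvae lacked the endogenous cluster of replication-dependent histone genes on both homologs (ΔHisC, UAS-2xEYFP over ΔHisC, twi-GAL4), the fluorescent marker serving to pick them. A transgenic array of histone genes replaced the cluster and was wild type in HWT, coded for H3 with arginine at position 9 in H3K9R, and coded for H4 with arginine at position 16 in H4K16R. Replication-independent histone genes were not mutated, so H3K9R larvae kept H3.3 with its lysine 9, and H4K16R larvae kept wild-type H4 from His4r. What was measured is DNA and not RNA, which leaves the tissue label without a check against marker genes, and in DNA pooled from whole glands a lower copy number in every cell and a full copy number in fewer cells cannot be told apart.

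Salivary gland cells replicate their DNA many times without dividing, and their chromosome arms become polytene. Late-replicating heterochromatin is copied in fewer of these cycles and ends up under-represented, above all around the centromeres, where lysine 9 of H3 is methylated and bound by HP1a. The pericentric part of X is known for flamenco (flam), a cluster of transposon remnants whose transcript feeds the piRNA pathway, and for the repeated ribosomal RNA genes. Acetylation of lysine 16 of H4 is best known from the X of males, where the dosage compensation complex deposits it, and the larvae here were female.

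Much pericentric sequence of X exists in more than 1 copy, and reads with low mapping confidence had been removed from the data. For each window, the percentage of 100-base sequences with no second copy in dm6 was computed, called unique sequence here. Sequences with unknown bases (N) counted as not unique. The part of unique sequence in the levels was not tested. Its median was 31.2% in pericentric windows of X and 100% in arm windows. The 4 sequences that follow show what the measure means at windows the results turn on. They come from the RefSeq copy of dm6, plus strand, and capitals mark bases that lie in a 100-base sequence found once. The first is from the tip of the arm (chrX:50422-50621), the second from the proximal end of flam (chrX:21761238-21761437), the third from the window with the highest H3K9R/HWT ratio on X (chrX:22371149-22371348) and the last from the window with the lowest such ratio among pericentric windows, inside the long non-coding RNA gene CR44997 (chrX:22744901-22745100), where all bases are unique.
Tip: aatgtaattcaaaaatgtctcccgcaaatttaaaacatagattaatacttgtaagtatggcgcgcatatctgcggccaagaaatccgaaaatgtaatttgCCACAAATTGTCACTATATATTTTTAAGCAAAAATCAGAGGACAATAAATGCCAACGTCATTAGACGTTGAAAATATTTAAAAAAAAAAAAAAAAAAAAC
flam: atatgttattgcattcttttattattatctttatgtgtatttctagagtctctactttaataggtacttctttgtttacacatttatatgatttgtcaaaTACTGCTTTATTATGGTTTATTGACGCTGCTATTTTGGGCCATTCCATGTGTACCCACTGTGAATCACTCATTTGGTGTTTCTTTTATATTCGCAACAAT
Highest ratio: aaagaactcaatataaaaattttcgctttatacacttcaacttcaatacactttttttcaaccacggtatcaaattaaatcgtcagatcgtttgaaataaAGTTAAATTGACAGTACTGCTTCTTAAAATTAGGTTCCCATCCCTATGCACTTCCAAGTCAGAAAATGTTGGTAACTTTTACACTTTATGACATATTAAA
CR44997: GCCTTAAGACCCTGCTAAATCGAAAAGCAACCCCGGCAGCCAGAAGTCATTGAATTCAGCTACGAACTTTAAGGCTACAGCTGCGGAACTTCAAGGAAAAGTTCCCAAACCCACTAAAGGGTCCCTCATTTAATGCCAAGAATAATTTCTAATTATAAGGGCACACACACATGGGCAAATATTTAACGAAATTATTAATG

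Beside transposons and ribosomal RNA genes, the repeated sequence on X includes 3 tandem arrays that are shown here. A cluster of 20 protein-coding genes of 875 to 876 bases, CG40813 and CG46504 to CG46522, lies between 22143058 and 22247475 with a median spacing of 4997 bases. Their copies are nearly alike, as the first 90 coding bases of 3 of them show (CG40813 from chrX:22143102-22143191, CG46504 from chrX:22147833-22147922 and CG46512 from chrX:22187414-22187503, capitals marking bases that differ from CG40813).
CG40813: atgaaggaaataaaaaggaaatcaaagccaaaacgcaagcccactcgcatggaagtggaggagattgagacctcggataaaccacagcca
CG46504: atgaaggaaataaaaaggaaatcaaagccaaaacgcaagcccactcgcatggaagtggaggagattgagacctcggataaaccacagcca
CG46512: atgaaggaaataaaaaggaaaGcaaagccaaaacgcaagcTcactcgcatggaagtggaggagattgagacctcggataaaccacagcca
The first 2 were identical over these bases and the last differed at 2 of 90.

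A short tandem repeat of 357 bases fills the arm windows from 210001 to 230000. Neighbouring copies were identical over the 150 bases shown, at chrX:211001-211150 and chrX:211358-211507, and no 100-base sequence of these windows occurs once.
Copy: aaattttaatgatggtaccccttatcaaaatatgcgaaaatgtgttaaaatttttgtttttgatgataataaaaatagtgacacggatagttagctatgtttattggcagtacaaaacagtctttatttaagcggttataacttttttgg
Next copy: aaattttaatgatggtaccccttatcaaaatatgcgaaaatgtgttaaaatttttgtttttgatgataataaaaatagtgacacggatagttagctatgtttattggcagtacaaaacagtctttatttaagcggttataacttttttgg
A longer tandem repeat, with copies 5886 bases apart at the place shown, lies at 23110001 to 23150000, near the centromeric end. Its copies differed at 1 of the 150 bases shown (chrX:23121001-23121150 and chrX:23126887-23127036, the differing base in capitals).
Copy: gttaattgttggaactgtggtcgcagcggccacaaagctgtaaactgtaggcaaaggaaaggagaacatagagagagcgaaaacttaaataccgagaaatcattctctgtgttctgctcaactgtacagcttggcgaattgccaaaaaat
Next copy: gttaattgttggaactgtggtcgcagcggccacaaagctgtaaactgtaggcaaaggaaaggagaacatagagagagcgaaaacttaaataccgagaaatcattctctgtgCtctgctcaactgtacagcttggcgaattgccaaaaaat

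The deposited values are the authors' averages over both libraries of a genotype, in reads per 1000000 mapped reads (RPM). Each average equals a sum of whole read numbers over library totals, and 1 pair of totals per genotype gave whole reads at 100% of the windows, so the reads of single libraries were derived from the averages. Nothing links a derived library to a replicate number, so each pair is named by depth, deeper and shallower, and the deeper library is given first throughout. The libraries hold 18681787 to 26685461 reads, of which 6.17% to 8.96% lie in listed windows. The median number of reads per library was 318 to 874.5 in a pericentric window of X and 649 to 1021 in an arm window. At windows of at least 5 RPM, the libraries of a genotype differed by a median of 0.07 to 0.09 on the log2 scale. If reads fell evenly on the whole assembly, a 10 kb window would take 69.6 RPM. In HWT, 2 pericentric and 5 arm windows of X lay above that level.

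Pericentric copy number on X was higher in H3K9R than in HWT at most windows. The median level of the 146 windows was 12.5 RPM in either HWT library, 16.04 and 15.3 RPM in the H4K16R libraries and 39.1 and 37.3 RPM in the H3K9R libraries. Both H3K9R libraries thus lay above all libraries of the other genotypes. In terms of even coverage, the averages came to a median of 17.9% in HWT, 22.9% in H4K16R and 55.2% in H3K9R. The number of windows below 6.96 RPM, which is 10% of even coverage, was 52 in HWT, 43 in H4K16R and 14 in H3K9R. The summed level of the windows was 2866 RPM in HWT, 2963 RPM in H4K16R and 5659 RPM in H3K9R.

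**Figure D1:**
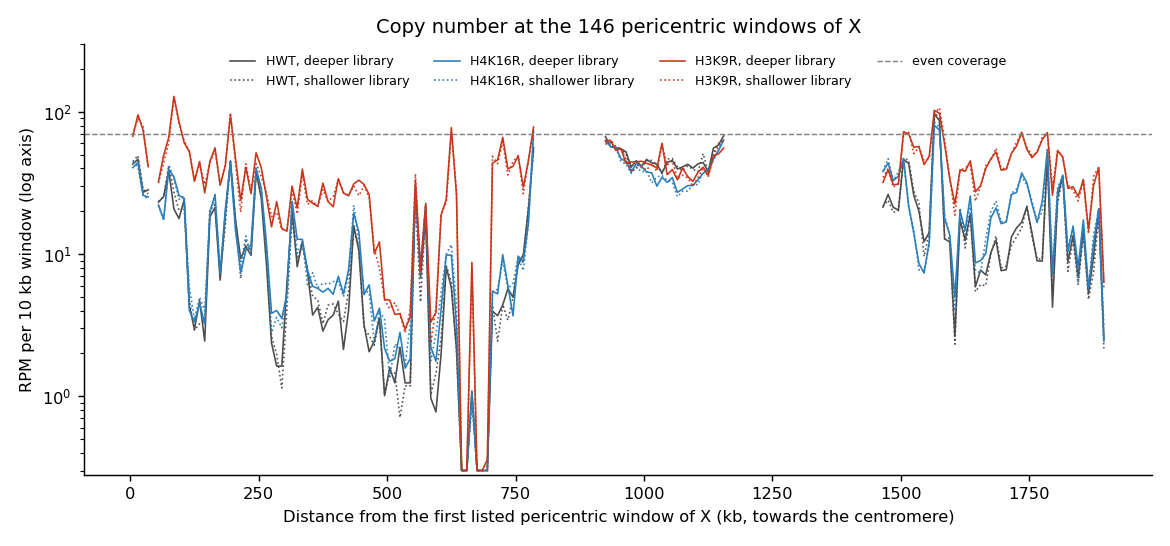
RPM (log axis) of each 10 kb pericentric window of X by library against distance from the first listed pericentric window. Solid and dotted lines are the deeper and shallower library of a genotype, and the dashed line is even coverage at 69.6 RPM, with values under 0.3 RPM drawn at 0.3 and H3K9R above HWT except in the block about 1000 kb along.

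The median H3K9R/HWT log2 ratio was 1.45 over the 141 windows with reads in both genotypes, a 2.72-fold difference, with quartiles of 0.57 and 2.265. The ratio was above 0 at 122 windows and at least 2-fold at 93. Set against each other 1 by 1, the libraries of H3K9R and HWT gave 4 medians between 1.37 and 1.46. The two-sided exact permutation test over library medians returned p = 0.33, which is as low as a comparison of 2 libraries with 2 can go. With limma on log2(RPM + 1) of the 6 libraries, fitted on all listed windows and called at a Benjamini-Hochberg adjusted p under 0.001, 111 of 142 tested windows rose and 0 fell, against a background of 79.2% higher and 0% lower over the pericentric windows of all chromosomes. Without adjustment 7 windows of X were lower at p under 0.05, and limma-voom on the derived reads called 3. The share called on X is close to the background, and 4 windows had no read in any genotype.

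The ratios of H4K16R to HWT were closer to 0. The median H4K16R/HWT log2 ratio of the pericentric windows was 0.21, with library pairings from 0.17 to 0.23, quartiles of -0.05 and 0.63 and an exact permutation p = 0.33. limma called 16 windows higher and 3 lower, against backgrounds of 1.97% and 0.219% over all pericentric windows. X held 16 of the 27 higher calls and all 3 lower calls of the genome's pericentric windows. These calls depended on the setting. Adding 0.1 RPM in place of 1 or fitting only these 2 genotypes gave 0 calls in either direction. They were also lost when any 1 of the 6 libraries was left out, though H3K9R libraries enter only through the shared spread. Scaling to well covered arm windows kept 16 higher and 3 lower, and limma-voom gave 25 and 15. Between the mutants, the H3K9R/H4K16R median was 1.22 over 142 windows, and limma called 101 windows higher in H3K9R and 0 lower, against backgrounds of 75.3% and 0.365%. Without adjustment 4 were lower at p under 0.05. The H3K9R/HWT and H4K16R/HWT ratios share the HWT libraries, which alone can make them correlate. Their Spearman correlation over 141 pericentric windows, 0.68, is therefore not read as a result.

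The size of the H3K9R/HWT ratio went with the level of a window. Over 141 pericentric windows of X, the Spearman correlation between the ratio and the level in H4K16R, whose libraries do not enter the ratio, was -0.75, a description over windows that share libraries and neighbours. Among windows of at least 80% unique sequence the median turned to -0.06 over 25 windows, against 1.599 over the 116 other windows. Of those 25 windows, 20 lie in 1 block, at 22570001 to 22810000. The other 5 had a median of 1.41 and were all called higher, and the 25 windows outside the block with at least 50% unique sequence had a median of 2.15 and were all called higher.

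**Figure D2:**
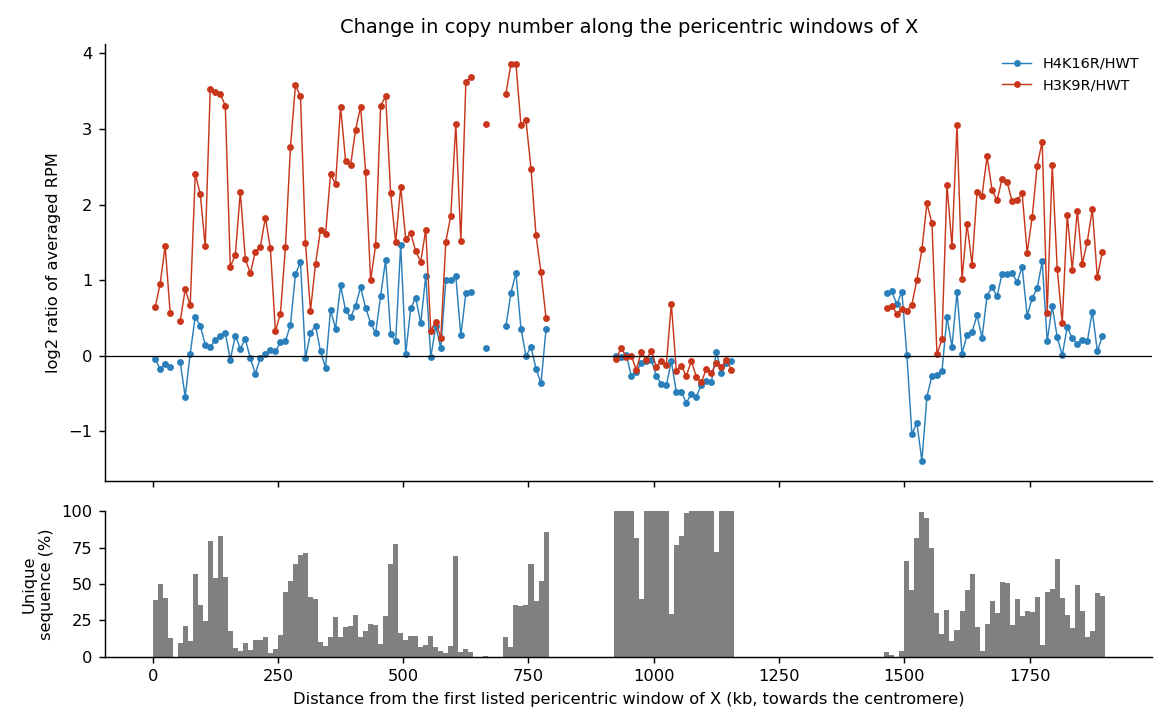
Upper panel, log2 ratio of averaged RPM to HWT for H3K9R (red) and H4K16R (blue) at each pericentric window of X, and lower panel, percent of 100-base sequences that occur once. H3K9R ratios reach 3.86 in the distal block, stay near 0 in the block of nearly unique sequence about 1000 kb along, and the lowest H4K16R ratio, -1.39, lies in the last block.

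The border between arm and pericentric heterochromatin ran through flam. flam (FBgn0267704) is annotated as a non-coding RNA gene of 158841 bases on the plus strand, from 21631891 to 21790731, and the annotation lists 38 transposable elements in its pericentric part. Its arm window, at 21640001 to 21650000, took 68.5 and 66.7 RPM in the HWT libraries, 67.7 and 65.0 RPM in H4K16R and 78.6 and 66.8 RPM in H3K9R. The genotypes overlap there, and the adjusted p of limma for H3K9R against HWT was 0.316. Only 5.22% of this arm window is unique sequence, so its level says little about this place. At the adjoining window, the first of the pericentric list, HWT took 42.9 and 44.7 RPM, H4K16R 40.5 and 44.5 RPM and H3K9R 67.3 and 69.2 RPM. H3K9R stood above the other genotypes, which overlapped, with a 1.56-fold ratio to HWT and an adjusted p of 6.08e-05 (limma). The call was not kept under every other setting.

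In H3K9R, against the pericentric background of 79.2%, all 14 pericentric windows of flam rose. Their median H3K9R/HWT log2 ratio was 1.45, from 0.46 to 3.53, and 0 of them was called in H4K16R, where the median was 0.07. At 21730001 to 21740000, the window with the highest level in H3K9R on the pericentric list, HWT took 20.7 and 27.3 RPM, H4K16R 34.9 and 33.7 RPM and H3K9R 128 and 126 RPM. That is a 5.29-fold ratio to HWT and more than the 69.6 RPM of even coverage. The highest ratios, 9.91-fold to 11.6-fold, were at the last 4 windows of the gene, where the flam sequence printed earlier lies. At 21760001 to 21770000, HWT took 4.34 and 4.76 RPM, H4K16R 4.01 and 5.83 RPM and H3K9R 52.5 and 53.0 RPM, so that H3K9R was 11.6-fold above HWT while HWT and H4K16R overlapped. The 6 flam windows with at least 50% unique sequence had a median of 3.39, and the 8 others 0.77.

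The distal block from 21700001 to 22440000, which starts inside flam, was the longest pericentric stretch with 74 windows. Its median level was 4.67 and 4.68 RPM in HWT, 6.03 and 6.31 RPM in H4K16R and 26.9 and 27.4 RPM in H3K9R. Of its 70 tested windows 64 rose in H3K9R (91.4%, against the pericentric background of 79.2%). The 5 windows of X with the highest H3K9R/HWT ratio all lie here, and none overlaps an annotated gene. At 22370001 to 22380000, HWT took 4.38 and 4.41 RPM, H4K16R 9.89 and 8.90 RPM and H3K9R 66.2 and 61.7 RPM. H3K9R was 14.5-fold above HWT, with a limma change of 3.59 (standard error 0.07, adjusted p = 3.49e-08), and 35.3% of the window is unique. In H4K16R the window passed too, with a limma change of 0.945 (standard error 0.07, adjusted p = 0.00045), where other settings gave an adjusted p from 4.97e-06 to 0.00622. The neighbour at 22360001 to 22370000 had a ratio of 14.5-fold too, from 3.68 and 2.44 RPM in HWT to 45.9 and 43.2 RPM in H3K9R. Ratios of 12.9-fold, 12.3-fold and 11.96-fold followed at 22280001, 22270001 and 21930001, with averages of 27.03, 74.3 and 21.5 RPM in H3K9R. Close by, the 4 windows without reads consist of unknown bases in the assembly (100% N), and at 22340001 to 22350000, which is 98.0% N, the averages were 0 RPM in HWT, 0.0187 RPM in H4K16R and 0.206 RPM in H3K9R.

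The cluster of near-identical genes CG40813 to CG46522 lies in the same block at low levels. Its 11 windows had a median average of 1.35 RPM in HWT, 2.49 RPM in H4K16R and 4.15 RPM in H3K9R. Of them 7 rose in H3K9R (63.6%, below the pericentric background of 79.2%). At 22140001 to 22150000, which holds CG40813 and CG46504, HWT took 1.01 and 1.02 RPM, H4K16R 2.17 and 3.46 RPM and H3K9R 4.79 and 4.76 RPM. The H4K16R/HWT ratio of 2.77-fold was the highest on X and did not pass the threshold (adjusted p = 0.00639, limma). With a median of 7.98% unique sequence, reads from 1 gene of the cluster can seldom be told from those of another. CG41562, a further gene just beyond the cluster, lies in a window of 69.6% unique sequence that took 1.98 and 2.56 RPM in HWT, 4.08 and 5.31 RPM in H4K16R and 18.8 and 19.2 RPM in H3K9R.

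A block of 24 pericentric windows, 22570001 to 22810000, had H3K9R levels close to those of HWT. It holds Cda4 (FBgn0052499, minus strand, 22583634 to 22632710), named for chitin deacetylase, the end of CG12446, and the long non-coding RNA gene CR44997 (FBgn0266348, plus strand, 22657324 to 22797682). Copy number there was already higher in HWT, with library medians of 44.0 and 45.4 RPM, against 37.7 and 37.9 RPM in H4K16R and 43.4 and 41.7 RPM in H3K9R. H3K9R/HWT had a median log2 ratio of -0.11, with library pairings from -0.13 to -0.07, and 19 windows were below 0. Only 1 window was called higher and 0 lower, and at an adjusted p under 0.05 there were 6 lower. The 6 Cda4 windows had a median of -0.01, and the 15 windows of CR44997 a median of -0.15. The window called higher, at 22680001 to 22690000, rose from 37.1 and 36.8 RPM in HWT to 60.02 and 59.1 RPM in H3K9R and has 29.4% unique sequence, the lowest share of the block. The lowest ratio of the pericentric list was at 22740001 to 22750000, whose middle is the fully unique CR44997 sequence shown earlier. There HWT took 40.2 and 39.5 RPM, H4K16R 30.3 and 30.7 RPM and H3K9R 32.5 and 30.0 RPM, so both mutants lay below HWT and overlapped each other. The limma change in H3K9R was -0.34 (standard error 0.06, adjusted p = 0.00151), and other settings gave an adjusted p from 2.07e-05 to 0.0199.

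In H4K16R the same block was the lowest of the 4 pericentric stretches, with a median H4K16R/HWT log2 ratio of -0.24 and 22 of 24 windows below 0. No window passed the main threshold, and 12 were lower at an adjusted p under 0.05. The lowest was at 22710001 to 22720000, within CR44997, where HWT took 39.6 and 41.05 RPM, H4K16R 27.2 and 25.3 RPM and H3K9R 33.2 and 33.9 RPM. The 3 genotypes did not overlap at this window. limma gave a change of -0.60 in H4K16R (standard error 0.06, adjusted p = 0.00139), with other settings from 1.07e-08 to 0.0123.

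The most proximal stretch, 23110001 to the end of the scaffold at 23542271, held 13 of the 16 higher calls of H4K16R and all 3 lower ones. Its 44 windows had library medians of 13.8 and 13.2 RPM in HWT, 17.9 and 18.8 RPM in H4K16R and 41.6 and 41.9 RPM in H3K9R. In H3K9R 42 windows rose (95.5%, against the pericentric background of 79.2%), with a median log2 ratio of 1.63. In H4K16R 13 rose and 3 fell, against backgrounds of 1.97% and 0.219%, with a median of 0.35. The last window, only 2271 bases long, took 2.52 and 2.16 RPM in HWT, 2.44 and 3.15 RPM in H4K16R and 6.36 and 5.78 RPM in H3K9R.

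At its distal end lies the tandem repeat with copies 5886 bases apart, and there H4K16R reached the higher level. At 23120001 to 23130000, HWT took 26.2 and 23.9 RPM, H3K9R 39.2 and 39.9 RPM and H4K16R 43.7 and 46.8 RPM. Against pericentric backgrounds of 79.2% in H3K9R and 1.97% in H4K16R, all 4 windows of the repeat were called higher in both mutants. Their median log2 ratio was 0.62 in H3K9R and 0.84 in H4K16R. Between the mutants 0 of these windows were called, and 3 were lower in H3K9R at an adjusted p under 0.05 (limma). Only a median of 2.21% of their sequence is unique.

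Just beyond, 3 windows moved in opposite directions in the mutants. At 23180001 to 23190000, which is 99.6% unique and holds no annotated gene, HWT took 20.0 and 22.8 RPM, H3K9R 57.1 and 56.4 RPM and H4K16R 8.58 and 7.73 RPM. H3K9R was 2.65-fold above HWT and H4K16R at 0.381 of it, and no libraries of different genotypes overlapped. limma gave changes of 1.37 in H3K9R (standard error 0.08, adjusted p = 1.32e-06) and -1.29 in H4K16R (standard error 0.08, adjusted p = 0.000215). Across the other settings the adjusted p of the H4K16R change ran from 2.15e-11 to 0.00307. At 23160001 to 23170000, HWT took 43.3 and 45.7 RPM, H3K9R 70.05 and 72.2 RPM and H4K16R 21.7 RPM in either library. The window between them, at 23170001, took 25.8 and 27.6 RPM in HWT, 56.3 and 50.9 RPM in H3K9R and 14.02 and 14.8 RPM in H4K16R. These 3 are the windows called lower in H4K16R.

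Ribosomal RNA genes and pseudogenes are annotated at 8 windows between 23200001 and 23300000. In H4K16R 0 of them were called, against a pericentric background of 1.97% higher, and the median log2 ratio was 0.195. In H3K9R 7 of them rose (87.5%, near the pericentric background of 79.2%), with a median log2 ratio of 1.596. The exception, at 23210001 to 23220000, had the highest level of the pericentric list in HWT, with 96.1 and 100.4 RPM, against 80.5 and 84.8 RPM in H4K16R and 102.4 and 96.8 RPM in H3K9R. HWT and H3K9R overlapped there. Reads of rRNA genes can come from copies that the assembly does not place, so these levels are uncertain.

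Between 23310001 and 23430000 both mutants were higher than HWT. These 12 windows were cut from the stretch after the values were seen, so their shared direction is not a separate result. All 12 rose in H3K9R, against the pericentric background of 79.2%, with a median log2 ratio of 2.17. In H4K16R 9 rose, against a background of 1.97%, with a median of 0.94. At 23420001 to 23430000, HWT took 8.91 and 9.29 RPM, H4K16R 23.5 and 19.8 RPM and H3K9R 63.7 and 66.1 RPM. That is 7.13-fold in H3K9R and 2.38-fold in H4K16R, with no overlap of genotypes, and the adjusted p of the H4K16R change was 0.000431 (limma). At 23380001 to 23390000 the levels were 16.7 and 15.2 RPM in HWT, 37.2 and 35.0 RPM in H4K16R and 71.9 and 69.5 RPM in H3K9R. No gene is annotated in these 12 windows.

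On the chromosome arm, the windows of X differed little between genotypes. The median level of the 189 windows was 38.6 and 38.5 RPM in the HWT libraries, 38.3 and 38.8 RPM in H4K16R and 35.4 and 34.7 RPM in H3K9R. The H3K9R libraries were the lowest, and those of HWT and H4K16R overlapped. Summed over the windows, HWT and H3K9R both took 7276 RPM and H4K16R took 7565 RPM. The H3K9R/HWT median on the log2 scale was -0.06, with library pairings from -0.07 to -0.04 and quartiles of -0.15 and 0.04, and 130 windows were below 0. The exact permutation test gave p = 0.33 here too, again the smallest possible. Scaling to the best covered arm windows turned this median to 0.08. RPM are shares of a library, and listed windows took 8.96% and 8.86% of the H3K9R reads. In HWT they took 6.18% and 6.17%, and in H4K16R 6.26% and 6.25%. A lower copy number on the arm of H3K9R and a lower share of its reads there cannot be told apart. The H4K16R/HWT median was 0.03, with pairings from 0.03 to 0.05 and an exact permutation p = 1.00, and the H3K9R/H4K16R median was -0.09.

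limma called 12 arm windows higher and 8 lower in H3K9R, against backgrounds of 2.72% and 19.3% over the arm windows of all chromosomes. The higher calls were 7 without the shallower HWT or the deeper H3K9R library. The 8 lower calls became 0 under the scaling to well covered arm windows, 0 when any HWT or H3K9R library was left out and 5 when any H4K16R library was. In H4K16R 0 arm windows were called in either direction, against backgrounds of 0.124% and 0%, with 34 higher and 13 lower at an unadjusted p under 0.05 and 7 and 3 by limma-voom. Between H3K9R and H4K16R, 9 were higher and 11 lower in H3K9R, against backgrounds of 2.23% and 19.8%, with 5 higher without the deeper H3K9R library. The 11 lower became 4 without any 1 HWT library, 0 or 1 without an H3K9R library and 0 or 1 without an H4K16R library, and 0 under the scaling.

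**Figure D3:**
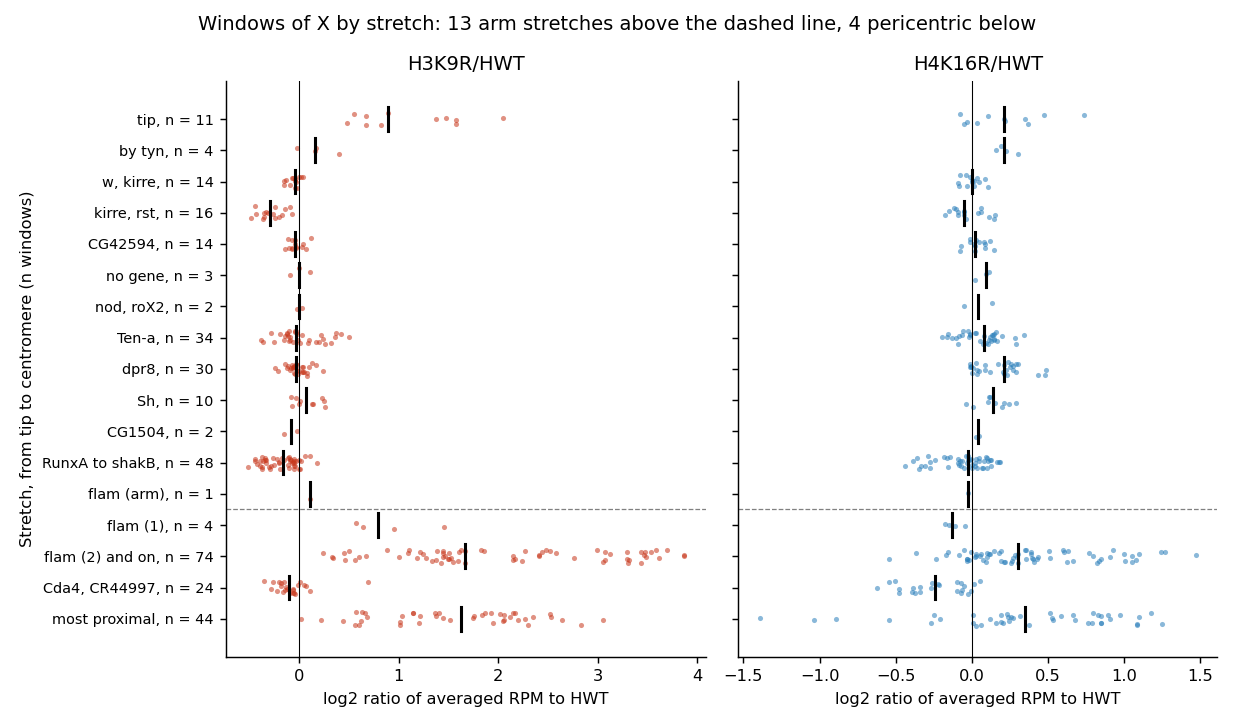
log2 ratio of averaged RPM to HWT of each window of X (points) and the median (black bar) in each of 17 stretches of adjoining windows, ordered from tip to centromere, with random vertical scatter and different axis ranges in the panels. Among the 13 arm stretches the tip has the highest H3K9R median, 0.89, with all points above 0, and among the 4 pericentric stretches the one with Cda4 and CR44997 has a median below 0.

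The tip of X held most of the higher calls of the arm list. Its 11 windows, 1 to 110000, hold no annotated gene and have a median of 3.11% unique sequence. Here 10 windows rose in H3K9R (90.9%, against the arm background of 2.72%), which left 2 higher calls for the rest of the arm list. The median H3K9R/HWT log2 ratio was 0.89. The library medians were 19.1 and 19.9 RPM in HWT, 25.1 and 24.7 RPM in H4K16R and 48.4 and 51.3 RPM in H3K9R. At 50001 to 60000, the window of the tip sequence shown earlier, HWT took 29.3 and 25.0 RPM, H4K16R 38.3 and 37.4 RPM and H3K9R 110.9 and 114.0 RPM. That is 4.14-fold above HWT and the highest ratio of the arm list, with a limma change of 2.01 (standard error 0.08, adjusted p = 1.71e-07). At 80001 to 90000, H3K9R took 134.6 and 142.8 RPM against 47.4 and 46.05 RPM in HWT and 48.2 and 52.5 RPM in H4K16R. H3K9R exceeded the 69.6 RPM of even coverage at both windows. Split after the values were seen, the first 5 windows had a median of 0.67 and the other 6 a median of 1.52. The window without a call, at 40001 to 50000, took 19.1 and 17.9 RPM in HWT and 25.7 and 33.1 RPM in H3K9R (adjusted p = 0.00288, limma). In H4K16R the highest ratio of the arm list was at 70001 to 80000, from 7.95 and 7.08 RPM in HWT to 13.6 and 11.4 RPM, with an adjusted p of 0.0112 (limma).

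**Figure D4:**
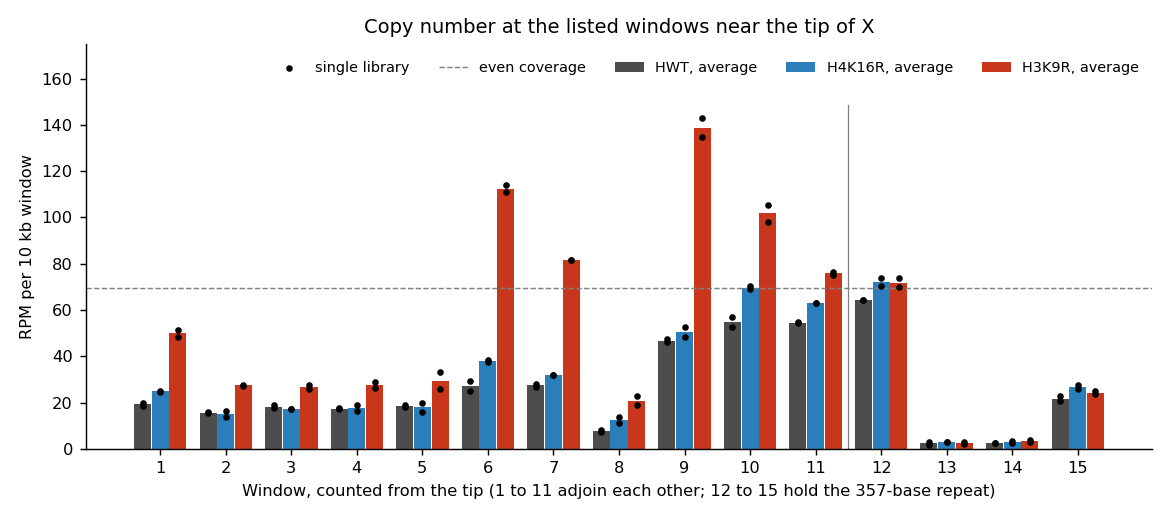
RPM of the first 15 listed windows of X by genotype, where bars are the averages of both libraries, dots the single libraries and the dashed line even coverage. H3K9R is the highest in windows 1 to 11, up to 138.7 RPM in window 9, whereas windows 13 and 14, which consist of the 357-base repeat, stay under 4 RPM in all genotypes.

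The tip was followed by the 357-base repeat at 200001 to 240000, next to tyn (trynity). Tandem periods of 340 to 370 bases over at least 10% of the window were found in 5 of the 189 arm windows of X (2.65%), in 0 of 619 arm windows of other chromosomes, and in 0.405% of the pericentric windows of other chromosomes. At 210001 to 220000, HWT took 1.78 and 2.95 RPM, H4K16R 2.81 and 2.72 RPM and H3K9R 1.88 and 2.78 RPM, and the genotypes overlapped. No window of this stretch was called in either mutant. Its 2 central windows hold no unique sequence.

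Outside these windows, the arm list of X falls into 11 stretches that carry named genes or lie between them, and their median H3K9R/HWT log2 ratios ran from -0.29 to 0.10. The first of them opens with w, the gene of the white eye-pigment transporter. The w window, 2790001 to 2800000, took 144 and 143 RPM in HWT, 149 and 145 RPM in H4K16R and 140 RPM in both H3K9R libraries, the highest level of any listed window of X. The log2 ratio to HWT was -0.04 in H3K9R and 0.04 in H4K16R, and neither passed (adjusted p = 0.563 and 0.749, limma).

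kirre, an immunoglobulin-family adhesion receptor of myoblast fusion, covers 30 listed windows in 2 stretches. In the distal stretch, 2790001 to 2930000, the median H3K9R/HWT ratio was -0.04 and 0 windows were called. In the proximal stretch, 2970001 to 3130000, the median was -0.29, with pairings from -0.34 to -0.22, and 3 windows fell. The proximal stretch also holds the start of rst, a paralogue of kirre on the minus strand. At 3040001 to 3050000, HWT took 32.7 and 32.2 RPM, H4K16R 28.8 and 28.7 RPM and H3K9R 24.0 and 23.6 RPM, with no overlap of genotypes. limma gave -0.43 in H3K9R (standard error 0.06, adjusted p = 0.000203), and other settings ran from 2.07e-06 to 0.00245. The adjoining window at 3030001 had the lowest ratio of the stretch, from 33.8 and 33.7 RPM in HWT to 22.5 and 25.7 RPM in H3K9R, and did not pass (adjusted p = 0.00113, limma).

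The longest arm stretch, 20530001 to 21010000, had the other 5 lower calls in H3K9R. It holds the Runt-domain transcription factor genes RunxB, RunxA and run and, more proximally, shakB, an innexin of gap junctions. The median H3K9R/HWT log2 ratio of its 48 windows was -0.17. A distal part and a part over shakB were cut from it after the values were seen. All 5 calls lay in the distal part, the 18 windows from 20580001 to 20760000, with a median of -0.37 and a range of -0.52 to -0.27. The 17 windows from 20770001 to 20940000, over most of shakB, had a median of -0.06. The lowest ratio on the arm of X was at 20720001 to 20730000, which took 45.0 and 45.8 RPM in HWT, 34.7 and 37.2 RPM in H4K16R and 30.5 and 33.0 RPM in H3K9R. Both mutants lay below HWT there, with an adjusted p of 0.000234 in H3K9R and 0.0217 in H4K16R (limma). In H4K16R the lowest ratio on the arm was inside shakB, at 20850001 to 20860000, from 18.3 and 18.1 RPM in HWT to 13.9 and 12.96 RPM (adjusted p = 0.0189, limma).

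Ten-a, a teneurin that matches synaptic partners, had the lowest levels among the gene-rich stretches. The 34 windows from 12050001 to 12390000 had library medians of 17.97 and 18.05 RPM in HWT, 18.3 and 17.5 RPM in H4K16R and 18.4 and 18.3 RPM in H3K9R, so that HWT and H4K16R overlapped and both H3K9R values lay just above them. Taken window by window, H3K9R against HWT came to a median of -0.03 on the log2 scale, with library pairings from -0.06 to 0.04. This ratio was below 0 at 20 windows and above 0 at 14. Within the stretch a distal and a proximal part, cut after the values were seen, differed in sign. The windows between 12160000 and 12210001 belong to neither part. For H3K9R/HWT, the 11 windows from 12050001 to 12160000 held 2 higher calls, with a median of 0.26 on the log2 scale, and the 18 windows from 12210001 to 12390000 had a median of -0.11 and no call. At 12120001 to 12130000, HWT took 10.97 and 12.3 RPM, H4K16R 15.4 and 14.04 RPM and H3K9R 16.5 and 16.2 RPM (adjusted p = 0.000743 for H3K9R, limma). At 12070001 to 12080000, levels went from 25.2 and 24.0 RPM in HWT to 32.7 and 33.0 RPM in H3K9R (adjusted p = 0.000369, limma).

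Apart from the tip and the repeat next to it, the stretches at dpr8 and Sh had the highest H4K16R/HWT medians of the arm list. At dpr8, an immunoglobulin-family surface protein of neurons, the 30 windows from 14280001 to 14580000 had a median of 0.21 in H4K16R and -0.03 in H3K9R. At 14510001 to 14520000 of that stretch, HWT took 38.5 and 39.9 RPM, H3K9R 40.1 and 37.4 RPM and H4K16R 53.5 and 56.5 RPM. HWT and H3K9R overlapped, and H4K16R was 1.40-fold above HWT with an adjusted p of 0.00462 (limma), which did not pass. At Sh, the Shaker potassium channel, the 10 windows had medians of 0.14 in H4K16R and 0.07 in H3K9R. The window with roX2, a non-coding RNA of the dosage compensation complex, and with the kinesin-like gene nod, took 69.9 and 68.6 RPM in HWT, 64.8 and 68.8 RPM in H4K16R and 68.9 and 72.1 RPM in H3K9R, and HWT overlapped both mutants.

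X and the other chromosomes had H3K9R/HWT medians of the same sign and different size. Over pericentric windows the median was 1.45 on X and 1.18 elsewhere, a difference of 0.26, with library pairings from 0.20 to 0.25. On single other chromosomes it was 0.67 to 1.35. In H4K16R the medians were 0.21 and 0.05, a difference of 0.15, but those of single other chromosomes ran from -0.02 to 0.22, with 3R (0.22) above X. Over arm windows the H3K9R/HWT medians were -0.06 on X and -0.27 elsewhere, a difference of 0.22, with pairings from 0.19 to 0.23. There, 4.23% of the windows of X and 23.9% of those elsewhere fell, though of the 40 arm windows of 2R, with a median of -0.12, 0 fell. The 148 lower calls elsewhere became 54 to 62 when an HWT or H3K9R library was left out and 64 under the scaling, where X had 0. For each of these 3 differences, the libraries of the genotypes did not overlap, and the exact permutation test of the difference gave p = 0.33, the smallest possible. For H4K16R on the arm the difference was 0.02 (exact permutation p = 1.00). The pericentric differences changed sign when only windows of at least 80% unique sequence were kept, to -1.72 in H3K9R and -0.33 in H4K16R. Of the 25 such windows of X, 20 lie at 22570001 to 22810000. Within X, pericentric and arm medians in H3K9R differed by 1.502, with pairings from 1.43 to 1.501. With only windows of at least 80% unique sequence, this difference within X was 0.01.

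**Figure D5:**
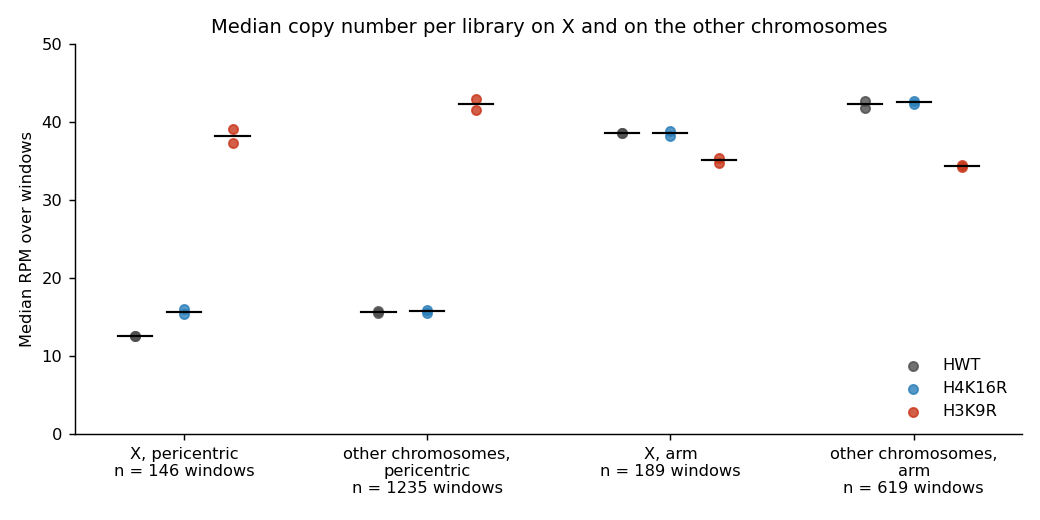
Median RPM over the listed windows of X and of the other chromosomes for each library (points) and the mean of both libraries (bar), by genotype, for pericentric and arm windows. The H3K9R medians are 39.1 and 37.3 RPM on X and above 41 RPM elsewhere at pericentric windows, and near 35 RPM at arm windows of either.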

How the data were processed

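Genomic DNA of larval salivary glands was sequenced in 6 libraries, 2 per genotype. The authors trimmed reads with Trimmomatic 0.36, aligned them to dm6 with Bowtie2 2.3.2, filtered them by mapping quality with SAMtools 1.6, counted them in 10 kb windows with bedtools and deposited RPM, reads per 1000000 mapped reads, averaged over both libraries. Under-replicated domains, in which the listed windows lie, had been called by the study with CNVnator in HWT. Window starts, deposited counting from 0, are printed counting from 1.

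Whole reads of each library were derived from the averages, with library totals of 18681787 to 26685461 reads, and the derived libraries were checked against every average. limma 3.58.1 in R 4.3.3 (lmFit, eBayes) was run on log2(RPM + 1) over 2177 windows with a read, with Benjamini-Hochberg adjustment and a call at an adjusted p under 0.001. limma changes are on that scale, whereas ratios are of averaged RPM. Two-sided exact permutation tests compared library medians. Python 3.11.15 with numpy 2.4.6, pandas 2.3.3 and scipy 1.17.1 did the rest. Tested on simulated data for H3K9R against HWT, the fit recovered 85.5% of 200 windows changed 1.5-fold and 98.5% of 200 changed 2-fold. The changed windows were drawn from those with a mean of at least 5 RPM, so recovery at lower windows was not tested. A test across windows was not run, because windows of 1 library are not replicates. p-values measure the spread between libraries only.

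Named windows were, in each list of X, the 5 highest and 5 lowest in H3K9R/HWT and the 3 highest and 3 lowest in H4K16R/HWT with at least 1 RPM in HWT, the first and last window, and each stretch of adjoining windows with its genes. Windows of repeats, flam, rRNA genes, w and roX2 and parts of stretches were named after their values were seen. The windows, lists and groups were chosen with earlier results of these data known. Genes come from the Ensembl annotation of dm6. Other offsets, filters, scalings, thresholds, window sets and left-out libraries were tried.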

Additional observations from a re-analysis of the deposited data

Results flagged for a closer look

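At 3 adjoining pericentric windows of X the mutants were called in opposite directions relative to HWT. The limma change of H3K9R against H4K16R was 1.668 at 23160001 to 23170000, 1.825 at 23170001 to 23180000 and 2.659 at 23180001 to 23190000. The difference between the mutants was itself past the threshold at each of them (limma on the 6 libraries, Benjamini-Hochberg adjusted p under 0.001), and both libraries of H3K9R lay above, and both of H4K16R below, those of HWT. The call of a lower level in H4K16R was lost when any 1 library was left out, with adjusted p-values of at most 0.00318, 0.00701 and 0.00307 over all settings. No gene is annotated in these windows, and no cause was tested.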

How the results depend on the processing

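Only averages over libraries were deposited, so the libraries are derived, with 2 per genotype. An exact permutation test can then not go below 0.33, and the calls rest on the spread that limma pools over genotypes. No paired analysis was possible because the averages do not show which derived library carries which replicate number. In low windows a value rests on few reads. Of the alternatives to medians, differences and counts of calls, 199 kept direction and threshold, 6 changed sign, and 18 counts rose and 40 fell by more than 1.5 times. Those of single named windows kept direction, with 9 that moved by more than the spread between libraries.

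With only windows of at least 80% unique sequence, pericentric medians of X changed sign, to -0.0643 for H3K9R/HWT and -0.267 for H4K16R/HWT. So did the differences from other chromosomes, to -1.716 and -0.332. Under the same filter the pericentric H3K9R/H4K16R median kept its sign but shrank from 1.223 to 0.1475. The H3K9R/HWT difference between pericentric and arm windows of X shrank from 1.502 to 0.01035. Scaling to well covered arm windows turned the arm medians to 0.0844 for H3K9R/HWT and 0.0434 for H3K9R/H4K16R. In alternatives chosen after seeing the data, the pericentric H3K9R/HWT median was 1.62 without the Cda4 stretch and the arm median -0.07 without the tip and the short repeat.

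Pericentric windows lower in H3K9R than HWT numbered 1 with a mean of at least 5 RPM, 6 at an adjusted p under 0.05 and 3 with limma-voom. Pericentric windows higher in H4K16R than HWT numbered 0 with 0.1 RPM added, 0 with only the genotypes compared, 51 at 0.05 and 25 with limma-voom, and lower ones 0, 0, 20 and 15. Both counts were 0 to 0 with 1 library left out. Pericentric windows lower in H3K9R than H4K16R numbered 3 at 0.05.

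Arm windows higher in H3K9R than HWT numbered 21 at 0.05, 5 by a 2-fold rule on averages and 7 to 11 with 1 library left out. Lower ones numbered 5 with only the genotypes compared, 43 at 0.05, 0 under scaling, 28 with limma-voom, 0 by the 2-fold rule and 0 to 5 with 1 library left out. In H4K16R against HWT, 14 were higher and 8 lower at 0.05, and 7 and 3 with limma-voom. In H3K9R against H4K16R, 20 were higher at 0.05, 4 by the 2-fold rule and 5 to 8 with 1 library left out. Lower ones numbered 4 with 0.1 RPM added, 4 with only the genotypes compared, 54 at 0.05, 0 under scaling, 39 with limma-voom, 0 by the 2-fold rule and 0 to 4 with 1 library left out. The cause of these shifts was not tested.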
